A study of Mus musculus with 4 samples.

Results

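The genes described here are 36 atrial and cardiac muscle genes, out of 21499 gene symbols measured in lung tissue of 4 mice. They were chosen by symbol, because Nppa and other cardiac genes had been seen to vary sharply between libraries apart from genotype. Their spread between libraries is therefore given as a description, without a test. All 36 were listed in each library and none was at 0. In rodents the walls of the pulmonary veins carry a sleeve of cardiac muscle that runs from the left atrium into the lung. Its cells resemble atrial myocytes: they hold striated sarcomeres, release calcium from a sarcoplasmic reticulum and can fire on their own. Atrial muscle is also the main source of atrial natriuretic peptide, the hormone encoded by Nppa, which is secreted when the wall is stretched.

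The mice were C57B/L6 males, 8 weeks old at injection, either wild type (2 libraries) or lacking lactoferrin, labelled Lf-/- and called knockout here (2 libraries). All 4 had received 200000 B16-F10 mouse melanoma cells into the tail vein, and tissue around the lung colonies, free of tumour by the labels, was taken after 3 weeks. The study held 10 mice per genotype, and each library is 1 of them. The labels do not say which lobe was taken or whether the vessels at the lung root were trimmed. In bulk RNA, a lower level cannot be told apart between fewer cells of a type and less RNA per cell.

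Levels are in FPKM, a fragment count divided by transcript length and by the library's mapped fragments, so those of different genes can be compared per length. Ltf, the knocked-out gene, measured 79.2 and 7.32 in wild-type mice 1 and 2 and 0.104 and 0.533 in knockout mice 1 and 2, in the direction of the labels. All 4 are labelled male, but the Y-linked gene Eif2s3y measured 0.0426 and 0 in wild type, compared with 24.2 and 22.0 without lactoferrin. A difference by genotype thus cannot be told apart from one by Y-linked transcription. Depth relative to wild-type mouse 1, read from the spacing of low FPKM values, was 1.11 for wild-type mouse 2, 0.968 for knockout mouse 1 and, with a blurred peak, 1.33 for knockout mouse 2. Absolute depth is unknown. Lung genes were high throughout, with Sftpc between 17185 and 21592 and Ager between 796 and 1410, but the club cell gene Scgb1a1 was listed at 0 in knockout mouse 2 and at 60454 or more in the others. A listed 0 of this kind can be a failed estimate.

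The promoters of Nppa, of its neighbour Nppb and of Myl7 and Actc1 are shown first, because Nppa and Nppb had far wider ranges between libraries than Myl7 and Actc1, the genes with the highest mean levels of the set. Each is the plus-strand or minus-strand window from 250 bases before to 50 bases after the start annotated by RefSeq on GRCm38.p6, written 5′ to 3′ in the direction of transcription. Nppa lies at chr4:148000472-148000771 (plus strand), Nppb at chr4:147985650-147985949 (plus), Myl7 at chr11:5898733-5899032 (minus) and Actc1 at chr2:114052826-114053125 (minus). Capitals mark matches, on either strand, to TATAAA, to the GATA letters AGATAA, to the M-CAT letters CATTCC, to the NKX2-5 letters CAAGTG, to the T-box letters AGGTGT or to a CArG box, the site of serum response factor.
Nppa: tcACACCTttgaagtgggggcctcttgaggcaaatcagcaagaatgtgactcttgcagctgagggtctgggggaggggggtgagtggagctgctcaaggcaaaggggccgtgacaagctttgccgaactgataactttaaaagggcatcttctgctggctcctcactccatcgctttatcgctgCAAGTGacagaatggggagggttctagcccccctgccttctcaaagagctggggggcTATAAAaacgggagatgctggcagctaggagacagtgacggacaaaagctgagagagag
Nppb: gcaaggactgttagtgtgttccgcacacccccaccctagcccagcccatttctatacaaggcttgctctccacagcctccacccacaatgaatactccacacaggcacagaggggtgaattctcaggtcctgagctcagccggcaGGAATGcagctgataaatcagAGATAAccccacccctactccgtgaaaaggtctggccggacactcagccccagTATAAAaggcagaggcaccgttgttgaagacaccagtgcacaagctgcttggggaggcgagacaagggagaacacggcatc
Myl7: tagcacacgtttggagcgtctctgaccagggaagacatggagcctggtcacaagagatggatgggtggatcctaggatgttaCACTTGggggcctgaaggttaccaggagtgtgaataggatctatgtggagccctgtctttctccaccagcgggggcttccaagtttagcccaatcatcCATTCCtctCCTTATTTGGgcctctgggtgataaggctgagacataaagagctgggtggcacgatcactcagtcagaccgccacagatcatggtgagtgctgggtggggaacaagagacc
Actc1: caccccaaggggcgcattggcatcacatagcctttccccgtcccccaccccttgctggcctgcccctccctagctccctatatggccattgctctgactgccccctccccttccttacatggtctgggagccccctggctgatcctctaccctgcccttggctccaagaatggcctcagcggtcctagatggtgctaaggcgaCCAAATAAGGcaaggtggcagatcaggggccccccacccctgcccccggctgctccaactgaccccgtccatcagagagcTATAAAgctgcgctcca

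In the Nppa window TATAAA began at base -9 from the start, CAAGTG at base -66 and the reverse complement of AGGTGT at base -248. The Nppb window held TATAAA from base -31, AGATAA from -84 and the reverse complement of CATTCC from -105. Both Myl7 and Actc1 held a CArG box, from -61 and -47. A promoter window was found for 31 of the 36 genes. A CArG box was present in 5 of the 31 (16.1%), against 1.81% of 27025 genes with a window of that length: Actc1, Ldb3, Myl3, Myl7 and Myom1. A MEF2 site was present in 3 (9.68%, against 3.70% of all genes), AGATAA in 7 (22.6%, against 12.7%) and CATTCC in 8 (25.8%, against 16.6%). CAAGTG was present in 6 (19.4%, against 15.4%), TATAAA in 4 (12.9%, against 15.7%) and AGGTGT in 4 (12.9%, against 15.7%). Matches of a few letters are a description of these windows and were not tested.

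In the data, all 36 genes were higher in wild-type mouse 1 and knockout mouse 2 than in wild-type mouse 2 and knockout mouse 1. Their summed FPKM was 1951 and 335 in wild-type mice 1 and 2, and 462 and 1306 in knockout mice 1 and 2. Without Nppa the sums were 1658, 333.5, 460.2 and 1198.5. Of the 31 genes that were high enough to enter the genotype fit, 31 showed this arrangement of libraries, compared with 19.5% of all 12573 genes fitted. The full order, wild type 1, knockout 2, knockout 1 and wild type 2 from highest to lowest, held for 26 of the 36 and for 24 of the 31, against 5.94% of all genes fitted. The highest library was at least 3 times the lowest for 35 of the 36, and for 30 of the 31, against 5.44% of all genes fitted. Both features together were found in 1.41% of all genes fitted. The genes were chosen for this spread, so these shares support nothing further.

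**Figure D1:**
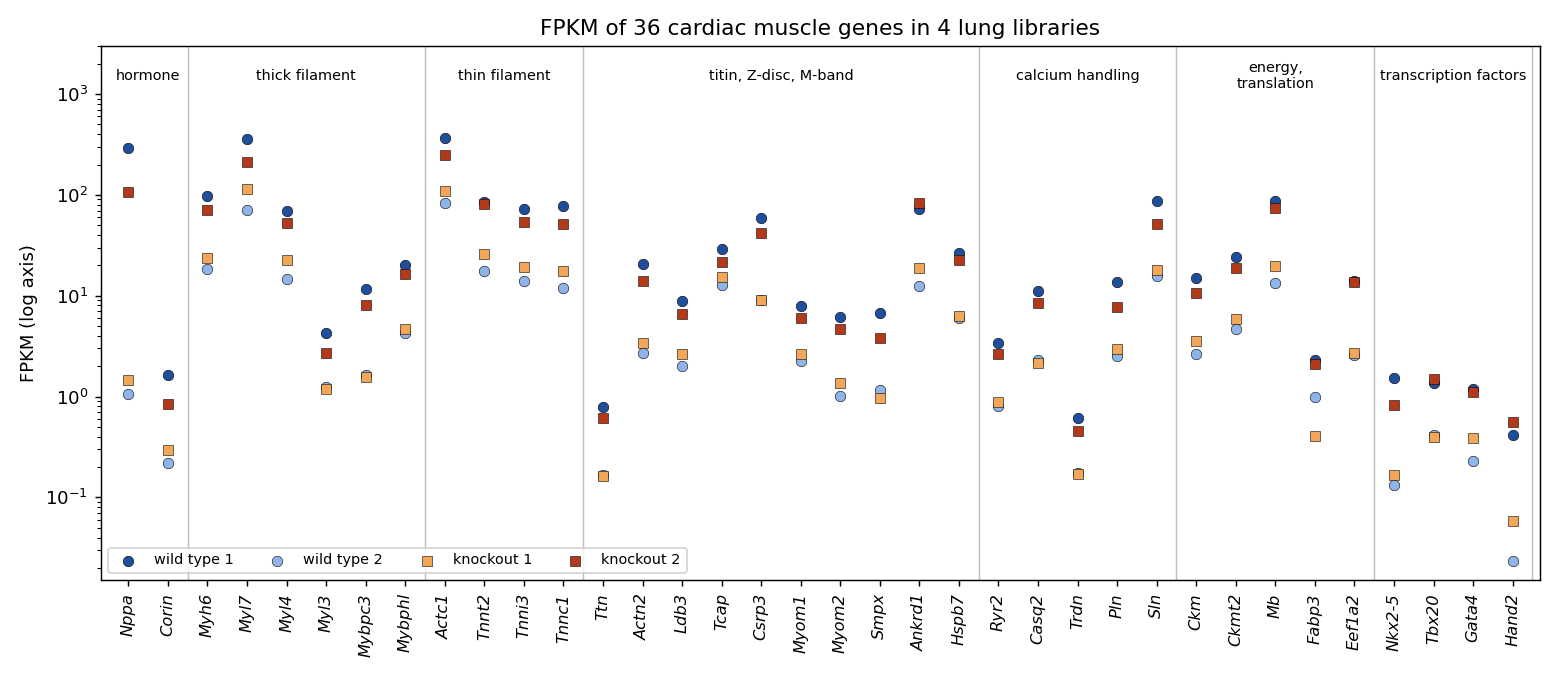
FPKM (log axis) of each of the 36 cardiac muscle genes, grouped by role, with 1 point per library (circles wild type, squares knockout). Wild-type mouse 1 and knockout mouse 2 lie above the other mice for all 36 genes, and the gap is widest for Nppa, from 1.05 to 293.

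From here on, 4 values in a row are wild-type mouse 1, wild-type mouse 2, knockout mouse 1 and knockout mouse 2. Nppa, the atrial natriuretic peptide precursor (chromosome 4, 148000722 to 148002079, plus strand), measured 293, 1.05, 1.45 and 108. It was high in wild-type mouse 1 and knockout mouse 2 and low in the others, with both genotypes holding 1 high and 1 low library. The ratio was 278 between the wild-type mice and 74.6 between the knockout mice. An antisense gene, Gm13054, shares 532 bases (61.5%) of the Nppa exons, and the strand setting of the counting is not given, so its reads cannot be told apart from those of Nppa. Corin, the cardiac protease that cuts the precursor into the active peptide, measured 1.63, 0.222, 0.297 and 0.844. Its ratio between the wild-type mice was 7.34, and it stayed too low to be fitted.

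Nppb, which encodes the related B-type peptide, is no member of the set but lies 13517 bases upstream of Nppa on the same strand. It measured 6.0, 0.186, 0 and 4.60, high and low in the same libraries as Nppa. Clcn6, a chloride transporter gene that ends 2180 bases beyond Nppa on the opposite strand, measured 4.13, 4.54, 5.28 and 4.59. It was named for its position after its values were seen, and it did not show the arrangement of libraries seen in the natriuretic peptide genes.

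Genes of the thick filament, the myosin motor and its binding proteins, were among the highest of the set. Myh6, the alpha cardiac myosin heavy chain, measured 96.6, 18.3, 23.6 and 70.5. Myl7, the atrial regulatory light chain, measured 356, 70.6, 116 and 211. The steps between libraries were alike in size for the motor and for this light chain between the wild-type mice (5.29 and 5.04 times), and 2.98 and 1.82 times between the knockout mice. Myl4, the atrial essential light chain, measured 69.2, 14.5, 22.4 and 52.4, and Myl3, its ventricular and slow-muscle counterpart, measured 4.30, 1.23, 1.18 and 2.71. Mybpc3, cardiac myosin binding protein C, measured 11.75, 1.62, 1.58 and 8.08. Mybphl, a myosin binding protein enriched in atria, measured 20.1, 4.28, 4.64 and 16.3. All 6 genes had their highest value in wild-type mouse 1, and the ratio of highest to lowest library ran from 3.63 (Myl3) to 7.46 (Mybpc3).

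The 4 thin filament genes followed closely. Actc1, cardiac alpha-actin, measured 364, 83.05, 109.8 and 251, the highest mean level of the set at 202. Tnnt2, Tnni3 and Tnnc1 encode the 3 subunits of cardiac troponin, the calcium switch of the filament. Tnnt2 measured 84.8, 17.6, 26.2 and 80.3, with wild-type mouse 1 and knockout mouse 2 nearly level. Tnni3 measured 71.7, 14.0, 19.3 and 53.8, and Tnnc1 76.9, 11.8, 17.4 and 51.8. All 4 kept the full order of libraries, with a ratio of highest to lowest library between 4.38 and 6.50.

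Genes of titin, the Z-disc and the M-band, which hold the filaments in register, covered a wide range of levels. Ttn, whose transcript is extremely long, measured 0.792, 0.165, 0.163 and 0.608 per length, and was not fitted. Actn2, the alpha-actinin of the Z-disc, measured 20.7, 2.72, 3.36 and 14.1, and Csrp3, a Z-disc LIM protein, 58.7, 9.05, 9.09 and 42.1. Ldb3, another Z-disc protein, measured 8.80, 2.00, 2.63 and 6.65. Within this group the widest and narrowest ratios of highest to lowest library belonged to Actn2 (7.62) and Tcap (2.29). Tcap, the titin cap, measured 28.9, 12.7, 15.2 and 21.5, and alone among the 36 genes stayed under a ratio of 3.

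The M-band genes Myom1 and Myom2, which encode myomesins that crosslink myosin, differed in their steps. Myom1 measured 7.85, 2.26, 2.63 and 6.04, and Myom2 6.22, 1.01, 1.36 and 4.66, so that the ratio of highest to lowest library was 3.47 and 6.15. Smpx, a small muscle protein gene on chromosome X, measured 6.69, 1.15, 0.960 and 3.83. Hspb7, a small heat shock protein of heart muscle, measured 26.5, 5.97, 6.27 and 22.8. Ankrd1, a stretch-responsive ankyrin repeat protein, measured 73.2, 12.5, 18.98 and 82.9. It was 1 of 3 genes, with Tbx20 and Hand2, whose highest library was knockout mouse 2.

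Among calcium handling genes, Sln, which encodes sarcolipin, the atrial inhibitor of the calcium pump, measured 87.3, 15.7, 18.1 and 51.7. Pln, phospholamban, the inhibitor that prevails in ventricles, measured 13.7, 2.52, 2.96 and 7.81. Its exons share 1644 bases (59.6%) with the opposite-strand gene Gm47644, so its level is uncertain in the same way as that of Nppa. Ryr2, the calcium release channel, measured 3.39, 0.805, 0.883 and 2.65. Casq2, cardiac calsequestrin, which stores the calcium, measured 11.1, 2.32, 2.16 and 8.41, and Trdn, triadin, which ties it to the channel, 0.616, 0.173, 0.171 and 0.458. The 5 ratios of highest to lowest library lay between 3.60 and 5.56.

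Energy supply genes showed ratios of highest to lowest library from 5.13 to 6.42. Ckm, muscle creatine kinase, measured 14.8, 2.63, 3.57 and 10.7, and Ckmt2, its mitochondrial partner in striated muscle, 24.1, 4.71, 5.87 and 19.0. Mb, the oxygen store myoglobin, measured 86.3, 13.5, 19.7 and 73.97. Eef1a2, the translation elongation factor of muscle and neurons, measured 14.1, 2.59, 2.70 and 13.6. Fabp3, the heart fatty acid binding protein, measured 2.30, 0.996, 0.404 and 2.09. Its level in knockout mouse 1 was 0.405 times that in wild-type mouse 2, the lowest such ratio of the 36. The pseudogene Fabp3-ps1 was listed at 81.9, 22.1, 19.7 and 60.8, far above Fabp3. How reads were divided between the pair is not given, so the level of Fabp3 is uncertain, and the sum of the pair measured 84.2, 23.1, 20.1 and 62.9.

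The transcription factors of cardiac identity were low in every library. Nkx2-5, the homeobox factor of heart muscle, measured 1.54, 0.132, 0.166 and 0.826, and Gata4, a zinc finger factor, 1.18, 0.229, 0.391 and 1.11. Tbx20, a T-box factor, measured 1.37, 0.420, 0.398 and 1.504. Hand2, a basic helix-loop-helix factor that is also made outside the heart, measured 0.413, 0.0237, 0.0582 and 0.554. Hand2 had the widest ratio of highest to lowest library after Nppa, 23.4, at levels below 1 in every library.

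**Figure D2:**
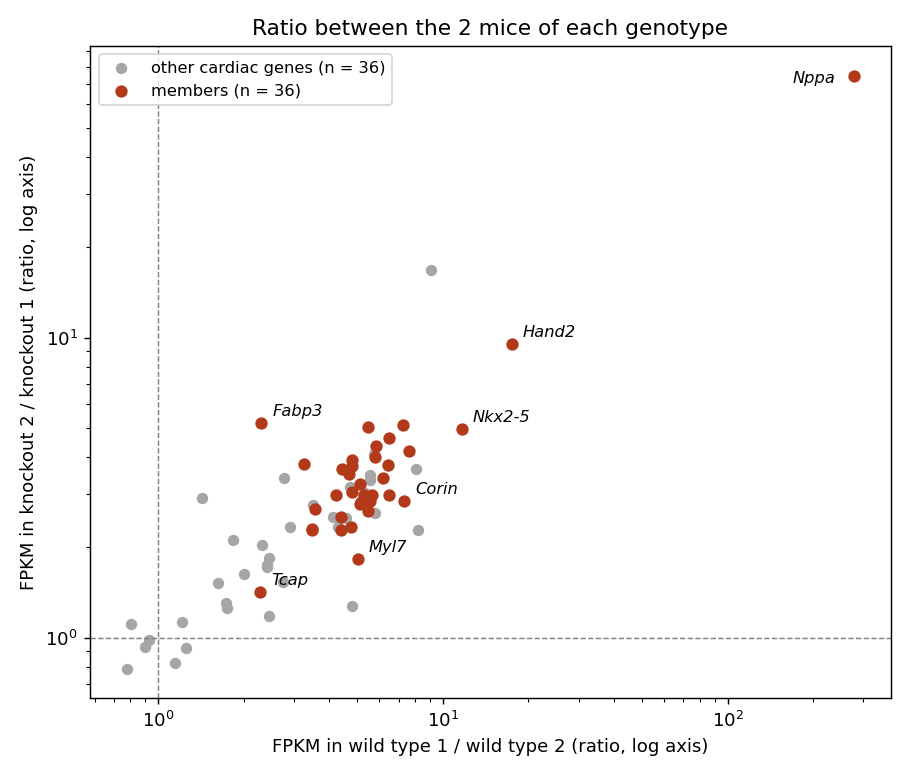
Ratio of FPKM between the wild-type mice (x axis) and between the knockout mice (y axis), both on log axes, for the 36 members (red) and 36 other cardiac genes (grey); dashed lines mark a ratio of 1. Nppa stands at 278 and 74.6, and the medians of the other 35 members are 5.13 and 3.06.

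Across the 35 members other than Nppa, the median ratio was 5.13 between the wild-type mice (range 2.29 to 17.5) and 3.06 between the knockout mice (1.42 to 9.52). Between the high libraries, wild-type mouse 1 over knockout mouse 2, it was 1.33 (0.745 to 1.93), and for Nppa 2.71. Between the low libraries, knockout mouse 1 over wild-type mouse 2, it was 1.24 (0.405 to 2.46), and for Nppa 1.37. The factors differed between members, from Tcap at the low end to Hand2 at the high end of both within-genotype ranges, and Nppa lay above both.

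Each member was next set against Tnnt2 in the same library, which takes out a level shared by all members. The SD of this log2 ratio over the 4 libraries had a median of 0.30 over the other members, Nppa left out, and ranged from 0.08 (Gata4) to 1.07 (Hand2). For Myh6 the ratio was 1.14, 1.04, 0.901 and 0.877, and for Myl7 4.20, 4.01, 4.41 and 2.63. For Nppa it was 3.45, 0.0597, 0.0551 and 1.34, with an SD of 3.07 on the log2 scale. Nppa was above Tnnt2 in wild-type mouse 1 and knockout mouse 2 and far below it in the remaining mice. With Actc1 or Myh6 as the reference the SD for Nppa was 3.20 and 3.02, and the median of the other members 0.28 and 0.22.

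**Figure D3:**
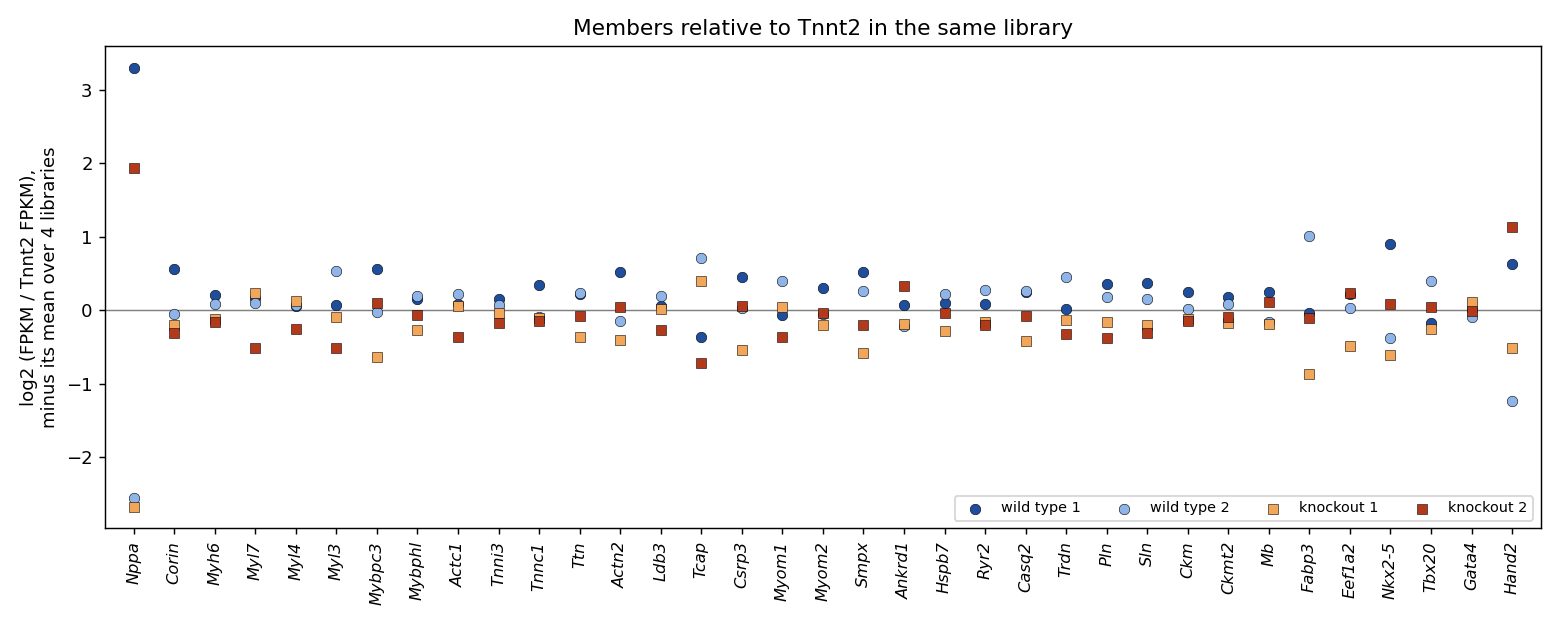
Log2 of each gene's FPKM over that of Tnnt2 in the same library, minus its mean over the 4 libraries, for the 35 members other than Tnnt2. Most genes lie close to 0 in every library, while Nppa spreads with an SD of 3.07 and Hand2 with 1.07.

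Of the myosin light chain genes that distinguish heart chambers, the atrial ones prevailed in every library. Myl2, the ventricular regulatory light chain, was listed at 0 in 3 libraries and at 0.0261 in knockout mouse 1, so that Myl7 made up 99.98% or more of the pair in every library. Irx4, a ventricular transcription factor, was listed at 0 in all 4. Myl4 made up 94.2%, 92.2%, 94.985% and 95.1% of Myl4 and Myl3 together, and Sln 86.4%, 86.2%, 85.97% and 86.9% of Sln and Pln. These shares hardly moved between libraries whose levels differed several-fold. Myh6 made up 96.96%, 88.2%, 82.6% and 95.9% of Myh6 and Myh7, lower in the low libraries. Adult mouse ventricle also makes Myh6, so this share does not tell the chambers apart. Myh7, the slow myosin of ventricle and slow muscle, measured 3.03, 2.45, 4.96 and 2.997 and was not highest where Myh6 was. Hey2, a ventricular repressor also made in vessels, measured 1.53, 1.62, 2.30 and 1.37.

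Other atrial genes ranged from Dkk3, with a mean level above the median member, to Bmp10, near 0. Dkk3, a secreted protein of atria and many other tissues, measured 35.9, 27.2, 26.6 and 22.3, without the arrangement of the members. The atrial potassium channel genes Kcnj5 and Kcnj3 showed it, with 2.13, 0.576, 0.553 and 1.5045 for Kcnj5 and 1.40, 0.273, 0.411 and 0.664 for Kcnj3. Kcna5, a further atrial potassium channel gene, did not, at 0.450, 0.307, 0.360 and 0.145, lowest in knockout mouse 2. Of the 6 genes of this list 3 had the arrangement, and of the 3 fitted 2 had it (19.5% of all genes fitted). Bmp10, which in the adult mouse heart is made by right atrial muscle, did not exceed 0.00903 in any library. Of 8 genes of pulmonary vein and pacemaker muscle, 6 stayed below 1 in all libraries, among them Hcn4, the pacemaker channel, between 0.136 and 0.201, and Shox2, between 0.0875 and 0.390. Tbx3 measured 28.95, 27.2, 36.5 and 34.9, Gja5, the connexin of atrial muscle and arterial endothelium, 11.2, 10.3, 16.5 and 15.6, and Cacna1g, a pacemaker calcium channel, 0.432, 0.108, 0.226 and 0.179. The label of vein muscle thus rests on the tissue and on atrial genes; whether the transcripts came from vein walls or from atrial tissue at the lung root cannot be told apart here.

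A second list of 36 genes of heart muscle function, none of them members, was set beside them. Of its 30 fitted genes, 23 were higher in wild-type mouse 1 and knockout mouse 2 than in both other mice (19.5% of all genes fitted). The full order was kept by 17 (5.94% of all), and 11 had a ratio of highest to lowest library of at least 3 (5.44%). This list too was chosen with earlier results of these data known. Cox8b, a muscle subunit of cytochrome oxidase, measured 53.5, 6.51, 10.5 and 23.8, and Cox6a2, another, 71.6, 38.9, 31.3 and 66.1. Atp2a2, the calcium pump that Pln and Sln restrain, measured 136, 67.7, 57.2 and 93.6, and Slc25a4, the mitochondrial ADP/ATP carrier of muscle, 169.5, 96.7, 114 and 143. Dmpk, a muscle kinase, measured 29.3, 16.9, 19.8 and 25.9. Mef2a, Mef2d and Nebl, which many cells make, stayed level, with ratios of highest to lowest library of 1.13, 1.10 and 1.29.

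Markers of neighbouring tissues were read in the same libraries, since a lung piece can include parts of them. Of 24 skeletal muscle genes 18 stayed below 1 in all libraries, and Acta1, Myh4, Mybpc1, Myod1 and Myog were listed at 0 in all 4. Their summed FPKM was 14.5, 4.96, 8.30 and 12.3, led by Tnnt3 (4.95, 0.557, 1.32 and 2.09), Atp2a1 (1.24, 0.535, 2.01 and 2.78) and Tnni2 (2.61, 0.447, 0.959 and 2.23). Of the 4 skeletal muscle genes fitted, 3 had the members' arrangement of libraries, against 19.5% of all genes fitted. Smooth muscle genes were highest in wild-type mouse 1 for 9 of 10, with sums of 1206, 445 and 714 in wild-type mice 1 and 2 and knockout mouse 1 and 799 in knockout mouse 2. Acta2, smooth muscle actin, measured 428, 145, 248.7 and 232, Tagln, transgelin, 311, 114, 190.3 and 223, and Des, desmin of smooth and striated muscle, 174, 65.5, 90.7 and 135. Of the 10 smooth muscle genes, all of them fitted, 6 had the members' arrangement of libraries (19.5% of all genes fitted) and none was at 0. The part of skeletal and smooth muscle in the result was not tested.

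Fat genes were high in wild-type mouse 1 alone. All 5 brown fat genes were highest there, with sums of 61.1, 1.76, 1.74 and 2.48. Ucp1, the uncoupling protein that defines brown fat, measured 45.3, 0.118, 0.0271 and 0.1003, Cidea 11.7, 0.987, 0.767 and 1.27, and Dio2 1.99, 0.393, 0.509 and 0.879. Elovl3 was listed at 0 in all libraries except wild-type mouse 1. All 7 genes shared by fat depots were highest there too, with sums of 405, 16.3, 28.8 and 22.6, led by Cfd, adipsin (205, 0.807, 10.3 and 7.61), Fabp4 (153, 7.66, 7.59 and 11.3) and Cidec (19.9, 6.71, 8.77 and 1.35). Knockout mouse 2, with cardiac levels close to those of wild-type mouse 1, had fat gene sums near those of the low libraries. The part of fat in the cardiac levels of wild-type mouse 1 was not tested.

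The remaining lists were low or mostly followed another arrangement. The members' arrangement was found in 1 of 6 mesothelial, 2 of 6 oesophageal and 1 of 7 autonomic neuron genes, and in no cartilage or thymus gene. Of the 4 fitted mesothelial genes 1 had it, against 19.5% of all genes fitted. Cartilage genes summed to 3.31, 0.254, 0.0711 and 0.1002, with Acan listed at 0 outside wild-type mouse 1, where it measured 0.520, and with Comp at 1.29 and Col2a1 at 1.11 there. Mesothelial genes, of the lung and heart lining, summed to 81.7, 37.7, 47.1 and 52.4, with all 6 highest in wild-type mouse 1. These sums, like those of the oesophageal genes below, kept the members' full order of libraries. Upk1b measured 32.4, 21.0, 6.94 and 28.3, Msln 24.2, 7.77, 20.4 and 14.6, and Upk3b 17.9, 6.63, 13.3 and 6.54. Oesophageal genes summed to 3.11, 0.299, 0.3001 and 0.709, with Krt5 at 2.36 in wild-type mouse 1 and at 0 in the others, and Krt13 and Krt4 did not exceed 0.472. Krt6a and Sprr3 were at 0 in all libraries. The thymus genes stayed below 1 in all libraries for 6 of 6, the highest being Dntt (0.451), Rag1 (0.136) and Ptcra (0.0444), with Psmb11 at 0 in all. Autonomic neuron genes summed to 4.47, 4.57, 3.70 and 7.74, led by Uchl1 (3.47, 4.38, 3.22 and 7.39), with Prph at 0.754 or less, Phox2a at 0.0899 or less and Th at 0 in all.

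**Figure D4:**
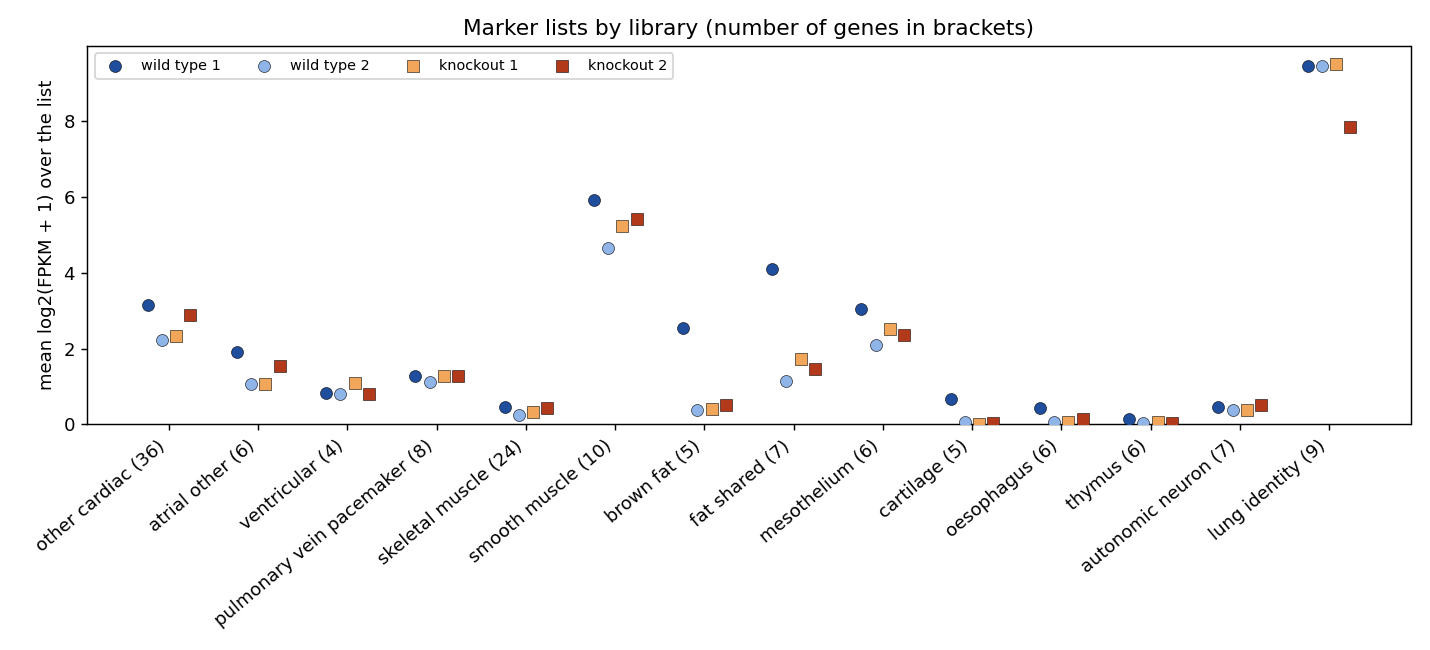
Mean log2(FPKM + 1) of each list of genes that are no members, 1 point per library (circles wild type, squares knockout), with the number of genes in brackets. The other cardiac genes are high in wild-type mouse 1 and knockout mouse 2, and the fat and cartilage lists in wild-type mouse 1 alone. The lung identity list has a low mean in knockout mouse 2, where Scgb1a1 was listed at 0. Of the other genes of that list, Ager, Cldn18, Nkx2-1, Foxj1 and Pecam1 were highest in that library. Sftpc and Sftpb were lowest there, and Cdh5 was neither.

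Of 12003 genes in no list and with a mean FPKM of at least 1, 10 were named as those whose pattern lay nearest to that of the members. Nearness was the mean absolute difference, over 4 libraries, between centred log2(FPKM + 1) values and the median of 29 members with a mean FPKM of at least 1. It had a median of 0.896 over the 12003 genes. Cpt1b, the carnitine palmitoyltransferase of muscle mitochondria, lay at 0.125 (7.62, 1.21, 1.47 and 4.47). Flnc, filamin C of the Z-disc, lay at 0.225 (7.43, 1.67, 2.02 and 5.08), and Trim72, a membrane repair protein of muscle, at 0.226 (5.47, 1.11, 1.45 and 4.06). Fndc5, the precursor of irisin, lay at 0.176 (7.66, 1.92, 1.81 and 5.88) and Fabp3-ps1 at 0.118. These 5 were also among the nearest 10 with a pseudocount of 0.1. The other 5, Nmrk2 (0.0886), Slc17a7 (0.156), Trim54 (0.193), Calml3 (0.230) and Tmem182 (0.234), were not.

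The study asks how lungs with metastases differ when lactoferrin is missing. None of the 31 members fitted differed between genotypes beyond the spread between mice, but they were chosen for a wide spread apart from genotype. Of these 31 genes, 0 passed an adjusted p of 0.05 by limma in either direction, against 0.0239% of all genes fitted (0.0159% higher and 0.00795% lower), and the smallest adjusted p was 0.935. At an unadjusted p under 0.05 the count was also 0, against 5.11% of all genes. The 5 genes not fitted were Corin, Ttn, Trdn, Nkx2-5 and Hand2. By sign, 7 were higher and 24 lower in the knockout, with a median log2 difference of -0.07 (range -0.59 to 0.37), compared with a median of -0.0050 over all genes fitted, of which 48.8% were higher. The libraries of the genotypes overlapped for all 36 genes, while those of 36% of all genes fitted did not overlap. The genes had been chosen for varying apart from genotype, which works against a low p and against groups that do not overlap. Nothing is thus read from that count or from the counts by p.

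Nppa averaged 147 ± 206 across the wild-type mice and 54.7 ± 75.3 across the knockout mice (SD, n = 2), with a log2 difference of -0.59 (SE 2.97, adjusted p = 0.988 by limma). Myl7 measured 214 ± 202 and 163 ± 67.4 (log2 difference -0.03, SE 0.82), and Actc1 223 ± 199 and 181 ± 100.2 (log2 difference -0.07, SE 0.81). Tnnt2 measured 51.2 ± 47.5 and 53.3 ± 38.3 (log2 difference 0.24, SE 0.90). The SD between mice of a genotype was a median of 1.26 on the log2 scale for the 31 genes and 0.142 for all genes fitted. A p that misses the threshold at this spread does not show that the genotypes were alike. Of the other cardiac list 0 of 30 fitted genes passed, and 1, Unc45b, a myosin chaperone named here after its value was seen, had an unadjusted p under 0.05, with 8.16, 6.71, 10.07 and 11.3 and a log2 difference of 0.48 (SE 0.14, adjusted p = 0.89 by limma). Both fitted genes of the vein and pacemaker list, Gja5 and Tbx3, were higher in each knockout mouse than in each wild-type mouse. The genotypes did not overlap, in either direction, for 36% of all genes fitted. Gja5 and Tbx3 also had an unadjusted p under 0.05 by limma, against 5.11% of all genes fitted. Neither gene showed the members' arrangement of libraries, and whether their levels came from vein muscle was not tested. Their log2 differences were 0.54 (SE 0.11) for Gja5 and 0.34 (SE 0.11) for Tbx3, and neither passed the adjusted threshold (adjusted p = 0.89 for each by limma).

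**Figure D5:**
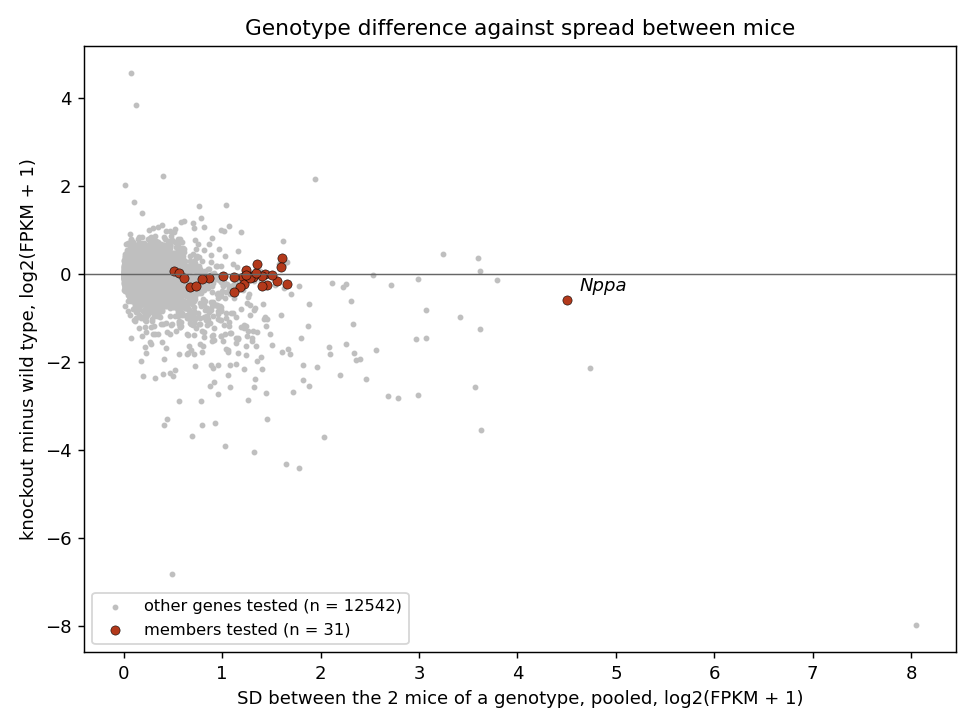
Genotype difference, knockout minus wild type, against the pooled SD between the 2 mice of a genotype, both in log2(FPKM + 1), for all genes fitted (grey) and the 31 members fitted (red). The members lie near 0 on the vertical axis, from -0.59 to 0.37, and to the right of most genes, with Nppa farthest right among them.

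The direction of the genotype difference turned on single libraries. Without wild-type mouse 1 the median of the members fitted was 1.01, and without knockout mouse 1 it was 0.63. It was -1.10 without wild-type mouse 2 and -0.78 without knockout mouse 2. With 1 mouse against 2, most genes do not overlap. Of the members fitted, 23 of 27 did not overlap without wild-type mouse 1 (72.0% of all genes fitted there) and 29 of 31 without wild-type mouse 2 (63.9%). Without knockout mouse 1 it was 2 of 31 (72.2%), and without knockout mouse 2 it was 4 of 27 (63.8%). The genes were chosen for their spread between these libraries, so nothing is read from these counts. No member passed the adjusted threshold in any of these fits.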

How the data were processed

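Lung RNA from 4 mice was sequenced, 1 library per mouse, 2 per genotype. The authors deposited FPKM values, fragment counts scaled by transcript length and by mapped fragments, for each gene symbol in each library. The submitters' processing notes name TopHat, Cufflinks, HTSeq, DESeq and the build GRCm38, without versions or roles. Not given in the sources used here: the annotation, the strand setting and the handling of multiply matching reads. FPKM gives no read counts, so no counting interval is given.

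Where a symbol occurred more than once (39 symbols, 46 extra entries) its values were added, giving 21499 genes per library, and no listed gene was among the repeated symbols. The 36 members were found by symbol, and the members and all gene lists were chosen with earlier results of these data known. Positions came from GENCODE vM21 (GRCm38), where each member had a unique position. The 12573 genes that reached an FPKM of 1 in 2 or more libraries were fitted with limma 3.58.1 in R 4.3.3 on log2(FPKM + 1), where the pseudocount shrinks the changes of low genes. Genotype was the sole term, with a mean-variance trend and Benjamini-Hochberg adjustment over all genes tested. The fit had 2 residual and 2.62 prior degrees of freedom, and its code was tested on simulated data. With 2 mice per genotype, the smallest two-sided p of an exact permutation test is 0.333, and no such test was run. Library-to-library ratios used the deposited FPKM and no test, since that spread chose the members. Promoter windows came from RefSeq (GRCm38.p6). Copies of the members were searched with BLAST 2.17.0 with limits of 95% identity and 50% of the transcript covered. Python 3.11.15, pandas 2.3.3, numpy 2.4.6 and matplotlib 3.10.9 were used.

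Named genes were the 36 members, the genes of each other list with the highest mean FPKM, and the 10 unlisted genes nearest to the members' pattern. Alternatives were other pseudocounts, filters, scalings and prior variances, each library left out, other reference genes and the mouse number as a block.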

Additional observations from a re-analysis of the deposited data

How the results depend on the processing

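No fitted member passed an adjusted or unadjusted p of 0.05 in any alternative fit. The median difference of the members kept its sign with other pseudocounts, filters, scalings, a constant prior variance and the block, and turned without wild-type mouse 1 or knockout mouse 1, ranging from -1.10 to 1.01 as single libraries were left out. Over all genes, the 1 lower call became 0 with quantile normalization, a constant prior variance, median ratio scaling or a pseudocount of 0.1. No filter gave 0 higher and 0 lower calls, and a filter on a mean FPKM of 5 gave 1 higher call. The cause was not tested. Leaving out a library gave 0 higher calls in place of 2, from 0 to 1 lower calls, and 433 to 1053 genes at an unadjusted p under 0.05 in place of 642. The members not overlapping rose from 0 to between 3 and 33 of 36; with 1 mouse against 2, between 63.8% and 72.2% of all genes fitted do not overlap. The median ratio of highest to lowest library, 5.29 over 29 members, ranged from 3.90 to 5.29 in the same way. Of the 10 genes nearest in pattern, 5 stayed with a pseudocount of 0.1.

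The mouse numbers name separate animals. With the number as a replicate block, 0 genes were higher, 0 lower and 418 passed an unadjusted p of 0.05. The deviations of same-numbered mice correlated at -0.336 across genes, so the numbers were not used as pairs. Absolute depth is unknown, so how far counting error limits the low members is not given.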
